A study of Mus musculus with 2 samples.

Results

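The genes described here are 7 enzymes of cholesterol synthesis, Hmgcs1, Idi1, Fdps, Fdft1, Sqle, Lss and Dhcr7, taken by symbol from the 32285 mouse genes in the deposited count matrices. They were chosen for their place in the pathway, and all 7 were measured. The data are droplet single-cell RNA-seq (10x Chromium, 3' v3 chemistry) of embryonic mouse brain tissue, with 1 library in each of 2 groups. The NTD library (neural tube defect) came from embryos of dams that were kept on a low-folate diet and received methotrexate (MTX), a folate antagonist, at 1.5 mg/kg into the peritoneum on gestational day 7.5. The control library came from embryos of dams given normal saline, and the labels do not say which diet these dams had. Closure of the neural tube was scored between E9.5 and E10.5, and the affected embryos were described as small and delayed, with hindbrain malformation and spina bifida. The labels do not give the strain, the number or sex of the embryos, or the stage at collection for either library. With 1 library per group, no comparison had a replicate check and no test was possible. The intervals below are 95% intervals that cover counting error only.

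Cholesterol is built from acetyl-CoA, first through mevalonate to isoprenoid diphosphates, then through squalene to the ring-shaped sterols. The enzymes of this route are transcribed together by SREBP2, a membrane-bound factor that is released by proteolysis when sterols in the endoplasmic reticulum run low. Embryonic brain makes its own cholesterol once the blood-brain barrier forms, and cholesterol is also attached covalently to Sonic hedgehog, the signal that patterns the ventral neural tube.

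Promoters of Hmgcs1 and Lss are shown, a pair picked with their ratios known. These genes stood on opposite sides of the control library in the comparison below and carry different matches to the SREBP site. A link between promoter matches and ratios was not tested. The letters searched, on both strands, were TCACNCCAC for the sterol regulatory element and CCAAT for the box bound by NF-Y, its usual partner. Capitals mark the matches, and ATTGG is CCAAT read on the other strand. The sequences are from RefSeq on build GRCm38.p6, plus strand. The Hmgcs1 sequence is the whole window before the RefSeq start, which lies upstream of the gene start given below, and the Lss sequence stops at the annotated gene start.
Hmgcs1, chr13:119690101-119690350: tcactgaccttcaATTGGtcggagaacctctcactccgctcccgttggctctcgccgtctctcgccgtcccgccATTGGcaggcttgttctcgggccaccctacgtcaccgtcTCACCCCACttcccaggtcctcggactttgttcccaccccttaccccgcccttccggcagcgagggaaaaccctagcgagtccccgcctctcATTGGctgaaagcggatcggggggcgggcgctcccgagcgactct
Lss, chr10:76531355-76531587: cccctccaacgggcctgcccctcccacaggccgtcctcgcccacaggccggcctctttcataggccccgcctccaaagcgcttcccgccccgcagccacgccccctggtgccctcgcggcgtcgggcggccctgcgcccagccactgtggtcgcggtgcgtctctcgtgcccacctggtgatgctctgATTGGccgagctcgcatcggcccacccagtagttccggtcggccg
The Hmgcs1 window held 1 sterol regulatory match, TCACCCCAC, 137 bases upstream of the RefSeq start, and 3 CCAAT matches. The Lss window held 1 CCAAT match and no sterol regulatory match, which says only that these letters are not in this window. Among 32851 mouse promoter windows of 250 bases, 1.05% held TCACNCCAC and 33.8% held CCAAT. RefSeq windows were found for 4 of the 7 genes. In the Idi1 window 2 CCAAT matches, both inside the annotated gene, and no sterol regulatory match were found. Idi1 had the highest ratio of the 7 genes in the comparison below. Of 3 Dhcr7 windows 1, which lies inside the annotated gene, held CCAAT matches, and none held the sterol regulatory letters. Promoters of Fdps, Fdft1 and Sqle are not shown.

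The NTD library held 55524355 UMIs (unique molecular identifiers, 1 per counted transcript molecule) in 19056 barcodes and the control library 50741121 UMIs in 18572 barcodes. After removal of likely doublets, 16151 NTD cells (median 2437 UMIs) and 15813 control cells (median 2167 UMIs) were kept. The libraries shared 105 barcodes, 76 of them among kept cells. Clustering gave 27 clusters, of which 20 were named from marker genes in 12 classes. Neural progenitor-like cells were 29.6% of NTD and 15.3% of control cells, neuron-like cells 11.5% and 8.68%, and mesenchyme or fibroblast-like cells 16.7% and 18.4%. Cardiac muscle-like cells, 52 in the NTD and 51 in the control library, were among the classes from outside the nervous system. Others were uneven, with 3 NTD and 80 control skeletal muscle-like cells, and 3 NTD and 148 control trophoblast, yolk sac or liver-like cells. Of the mesenchyme-like clusters, cluster 0 had 2645 NTD and 793 control cells, cluster 8 had 45 and 1357, and cluster 16 had 15 and 766. Values over all kept cells include these uneven classes. Ribosomal protein genes took 13.5% of NTD and 8.80% of control UMIs. The median of 19789 measured genes (at least 20 UMIs) was -0.24 on the log2 scale, NTD over control, and scaling by edgeR's trimmed mean of M-values (TMM) in place of library totals added 0.24 to every log2 ratio over all kept cells and 0.18 in neural progenitor-like cells.

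The 7 genes did not differ between the libraries in 1 common direction. Summed over the 7 genes and all kept cells, the level was 748 CPM (UMI counts scaled to a common total) in the NTD library, against 763 CPM in the control library, a log2 ratio of -0.03. The sums in neural progenitor-like cells were 734 CPM in the NTD library (interval 720 to 748), against 736 CPM in the control library (715 to 757), and these intervals overlap. With TMM scaling the log2 ratio of the sum was 0.21 over all kept cells and 0.18 in progenitor-like cells. Within these sums, Idi1 and Hmgcs1 near the start of the pathway were higher in the NTD library, Lss and Dhcr7 near its end were lower, and the 3 enzymes between them lay closer to 0 or moderately lower.

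**Figure D1:**
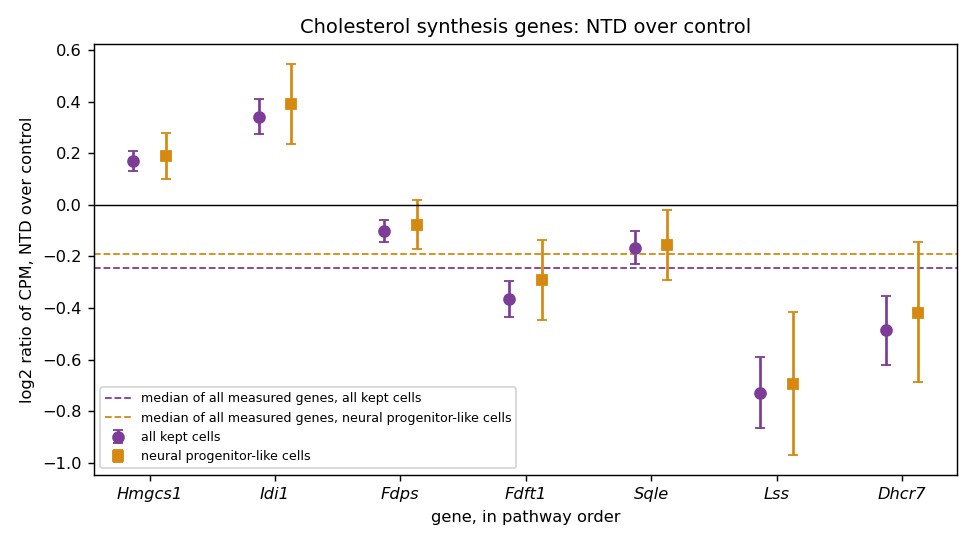
Log2 ratio of CPM, NTD over control, for each of the 7 genes in pathway order, over all kept cells (circles) and in neural progenitor-like cells (squares). Bars are 95% counting intervals and dashed lines the medians of all measured genes, -0.24 and -0.19; Idi1 is highest at 0.34 and 0.39 and Lss lowest at -0.73 and -0.69.

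Hmgcs1 encodes HMG-CoA synthase, which makes the substrate of HMG-CoA reductase. It lies on build GRCm38 at chr13:119690379-119708260 on the plus strand, and its promoter is the one above with the sterol regulatory match. Its level in neural progenitor-like cells was 251 CPM in the NTD library (3508 UMIs), against 220 CPM in the control library (1442 UMIs). The NTD library was the higher, with a log2 ratio of 0.19 (interval 0.10 to 0.28). Taken over all kept cells, the levels were 254 CPM in the NTD library, against 226 CPM in the control library, a log2 ratio of 0.17 (0.13 to 0.21). With TMM scaling the ratio became 0.37 in progenitor-like cells and 0.41 over all kept cells.

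Idi1 encodes isopentenyl-diphosphate isomerase, which converts isopentenyl diphosphate to dimethylallyl diphosphate, the starter unit for chain growth (chr13:8885501-8892451, plus strand). In neural progenitor-like cells it had 91.3 CPM in the NTD library, against 69.6 CPM in the control library. This was the highest ratio among the 7 genes, 0.39 on the log2 scale (0.24 to 0.55), and 0.57 with TMM scaling. Among all kept cells it had 95.6 CPM in the NTD library, against 75.5 CPM in the control library, a log2 ratio of 0.34 (0.27 to 0.41).

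Fdps encodes farnesyl diphosphate synthase, whose product feeds squalene and also protein prenylation, ubiquinone and dolichol (chr3:89093588-89101959, minus strand). Its levels in neural progenitor-like cells were 193 CPM in the NTD library, against 204 CPM in the control library. The log2 ratio of -0.08 had an interval from -0.17 to 0.02, so a difference was not detectable at this depth, and its sign turned with TMM scaling, to 0.11. Taken over all kept cells, the ratio was -0.10 (-0.14 to -0.06), and 0.14 with TMM scaling.

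Fdft1 encodes squalene synthase, the first step that is committed to sterols (chr14:63145150-63179578, minus strand). Progenitor-like cells held it at 67.0 CPM in the NTD library, against 82.0 CPM in the control library, a log2 ratio of -0.29 (-0.44 to -0.13). The NTD library was the lower, and with TMM scaling the ratio was -0.11. Sqle encodes squalene epoxidase, an oxygen-requiring and rate-limiting step (chr15:59315077-59331192, plus strand). Its levels in these cells were 92.6 CPM in the NTD library, against 103 CPM in the control library, a log2 ratio of -0.16 (-0.29 to -0.02) that turned to 0.03 with TMM scaling. The median of all genes in progenitor-like cells, -0.19, lay between the ratios of Fdft1 and Sqle.

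Lss encodes lanosterol synthase, which folds epoxidized squalene into the first sterol (chr10:76531588-76557138, plus strand). Its level in neural progenitor-like cells was 18.1 CPM in the NTD library (253 UMIs), against 29.3 CPM in the control library (192 UMIs). This was the lowest ratio of the 7, -0.69 on the log2 scale (-0.97 to -0.42), and it was -0.51 with TMM scaling. Among all kept cells Lss had 16.2 CPM in the NTD library, against 26.9 CPM in the control library, a log2 ratio of -0.73 (-0.87 to -0.59).

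Dhcr7 encodes 7-dehydrocholesterol reductase, the last step to cholesterol, whose loss in humans causes Smith-Lemli-Opitz syndrome (chr7:143823145-143848410, plus strand). In neural progenitor-like cells it had 21.0 CPM in the NTD library (294 UMIs), against 28.0 CPM in the control library (184 UMIs). The log2 ratio was -0.42 (-0.69 to -0.14), and -0.23 with TMM scaling. Its levels over all kept cells were 18.1 CPM in the NTD library, against 25.4 CPM in the control library, a log2 ratio of -0.49 (-0.62 to -0.35).

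A gene was counted as lower in the NTD library when its CPM was at least 20% below that of the control library, and as higher when it was at least 25% above it, the same distance on the log2 scale. In neural progenitor-like cells 2 of the 7 genes were lower (Lss and Dhcr7) and 1 was higher (Idi1). Of the 16040 genes measured in these cells, 35.4% were lower by that limit and 13.8% were higher. Among all kept cells 3 of 7 were lower (Fdft1, Lss and Dhcr7), against 42.2% of all measured genes, and 1 was higher (Idi1), against 12.2%. These shares of the members lie near those of all genes and are not a result about the pathway. The median log2 ratio of the 7 genes was -0.16 in progenitor-like cells and -0.17 over all kept cells, close to the medians of all measured genes, -0.19 and -0.24. With TMM scaling 1 gene was lower (Lss) and 2 were higher (Hmgcs1 and Idi1) in both sets of cells. By the same scaling 19.4% of all measured genes were lower and 23.0% higher in progenitor-like cells, and 23.5% were lower and 24.1% higher over all kept cells.

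The 7 genes differ in genomic span. Idi1 spans 6.95 kb, Fdps 8.37 kb, Sqle 16.1 kb and Hmgcs1 17.9 kb, while Dhcr7 spans 25.3 kb, Lss 25.6 kb and Fdft1 34.4 kb, so the 3 longest genes were the 3 with ratios under the median of all genes in progenitor-like cells. Relative to the median of genes whose span is within 2-fold of their own, the log2 ratios in progenitor-like cells were 0.33 for Hmgcs1, 0.41 for Idi1 and -0.03 for both Fdps and Sqle. By the same measure they were -0.08 for Fdft1, -0.51 for Lss and -0.24 for Dhcr7. The part of gene span in the differences between members was not tested beyond these values. Fdft1 overlaps Ctsb and Idi1 overlaps Gm48574, both on the opposite strand. Hmgcs1 and Lss each overlap an antisense transcript (Gm48342 and 4930483K19Rik), and Fdps overlaps Gm43738 and Gm22935 on its own strand. Whether counting used strand is not given in the sources used here, so reads from such partners cannot be told apart from those of these genes.

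By point value, the 7 genes differed in how far their levels varied over the 10 cell classes with at least 50 cells in each library. With classes ordered by level for each gene and library, 122 of 126 neighbouring pairs had overlapping intervals. In the NTD library the highest class was 1.58-fold the lowest for Idi1, 1.37-fold for Fdft1 and 5.35-fold for Dhcr7, and Lss had 1 class at 0. In the control library it was 2.08-fold for Idi1, 2.56-fold for Fdft1, 5.33-fold for Dhcr7 and 6.49-fold for Lss. The folds of Dhcr7 and Lss rest on very few counts. The lowest Dhcr7 class held 1 UMI in the NTD library (macrophage or microglia-like, interval 0.10 to 21.9 CPM). In the control library it also held 1 UMI (cardiac muscle-like, 0.14 to 30.7 CPM). The lowest Lss class in the control library, erythroid-like, held 3 UMIs (1.33 to 18.8 CPM). Hmgcs1 ranged from 153 CPM (macrophage or microglia-like) to 251 CPM (neural progenitor-like) in the NTD library and from 176 CPM (neural crest or Schwann precursor-like) to 220 CPM (cardiac muscle-like) in the control library. Fdps ranged from 165 CPM (endothelial-like) to 232 CPM (erythroid-like) in the NTD library and from 149 CPM (cardiac muscle-like) to 255 CPM (erythroid-like) in the control library. Sqle ranged from 68.2 CPM (epithelium-like) to 99.4 CPM (neural crest or Schwann precursor-like) in the NTD library and from 60.6 CPM (cardiac muscle-like) to 103 CPM (neural progenitor-like) in the control library. Hmgcs1, Fdps and Sqle were each detected in every class, and the highest class was at most 1.72-fold the lowest for each of them in either library.

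**Figure D2:**
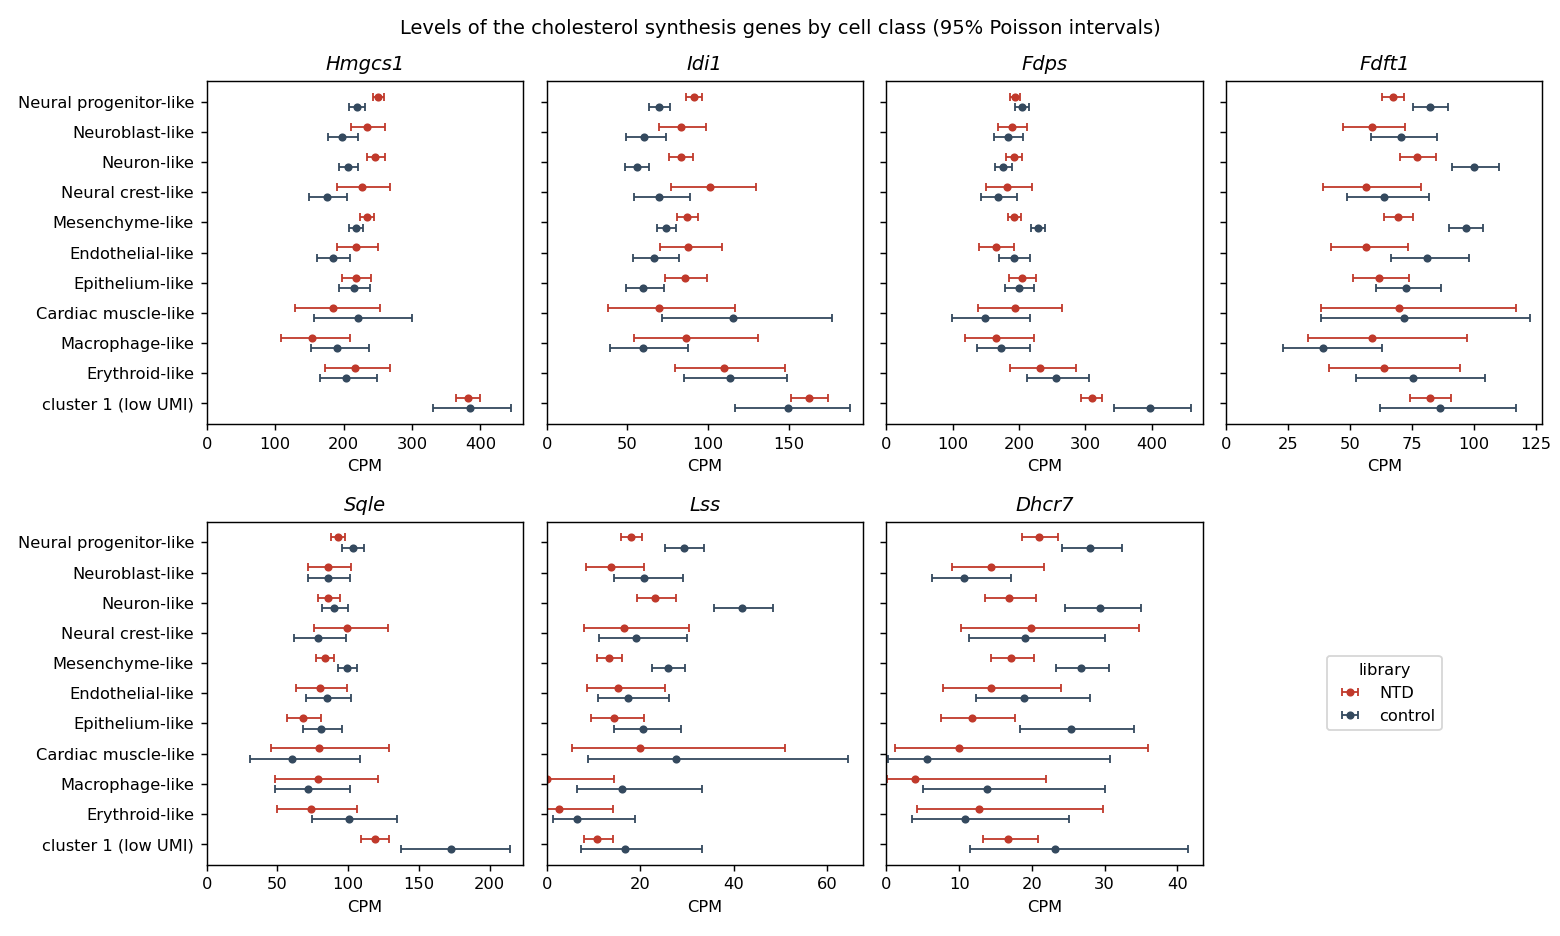
CPM of each gene in the 10 cell classes with at least 50 cells in both libraries and in the low-UMI cluster 1, NTD in red and control in dark blue, with exact 95% Poisson intervals. Lss is highest in neuron-like cells in both libraries, 23.2 CPM in NTD and 41.8 CPM in control, and in cluster 1 Hmgcs1, Idi1 and Fdps lie above the neural progenitor-like cells of both libraries.

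Lss and Fdft1 were highest in neuron-like cells in both libraries. Neuron-like over neural progenitor-like cells, Lss had a log2 ratio of 0.36 (0.04 to 0.67) within the NTD library and 0.51 (0.21 to 0.81) within the control library. Fdft1 had 0.20 (0.03 to 0.37) within the NTD library and 0.29 (0.10 to 0.47) within the control library. Erythroid-like cells, which lose their organelles as they mature, stood lowest or next to lowest for Lss, with 1 UMI in the NTD library and 3 UMIs in the control library. Macrophage or microglia-like cells held no Lss UMI in the NTD library, where 3 UMIs would be 11.8 CPM, and 7 UMIs (16.1 CPM) in the control library. Idi1 was highest in erythroid-like cells in the NTD library, at 110 CPM, but no neighbouring pair of its classes there differed beyond the intervals. In the control library it had 114 CPM in erythroid-like cells, above all classes but cardiac muscle-like cells (116 CPM), and 55.8 CPM in neuron-like cells, its lowest.

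Dhcr7 also varied between neural classes. In the NTD library it had 16.8 CPM in neuron-like, 21.0 CPM in neural progenitor-like and 14.3 CPM in neuroblast or intermediate progenitor-like cells, with overlapping intervals. In the control library it had 29.4 CPM in neuron-like and 28.0 CPM in neural progenitor-like cells, and 10.7 CPM in neuroblast or intermediate progenitor-like cells, where 6.24 to 17.2 CPM was the interval. In the neuroblast class Dhcr7 was thus higher in the NTD library by its point value, with overlapping intervals, whereas in neuron-like cells its NTD level was the lower of the pair, at a log2 ratio of -0.81 (-1.21 to -0.41).

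By the same limits, 3 of the 7 genes were lower in the NTD library in neuron-like cells, against 33.7% of measured genes, and 1 was higher, against 18.6%. Idi1 had 83.1 CPM in the NTD library, against 55.8 CPM in the control library, a log2 ratio of 0.57 (0.35 to 0.81). Lss had 23.2 CPM in the NTD library, against 41.8 CPM in the control library, a log2 ratio of -0.84 (-1.18 to -0.51). The sum of the 7 genes was 725 CPM in the NTD library, against 700 CPM in the control library. In mesenchyme or fibroblast-like cells the sum was lower in the NTD library, 696 CPM (678 to 715), than in the control library, 770 CPM (751 to 789), a log2 ratio of -0.14, which turned to 0.02 with TMM scaling and stood beside a median of all genes of -0.17. Fdft1, Lss and Dhcr7 were the 3 members counted as lower there, against 33.8% of measured genes, and none was higher, against 16.1%. Most NTD cells of that class came from cluster 0, and most control cells from clusters 8 and 16. In neural crest or Schwann precursor-like cells the sum was 702 CPM (637 to 772) in the NTD library and 594 CPM (546 to 645) in the control library. There 0 of the 7 genes were counted as lower and 3 as higher. Their median log2 ratio was 0.12, against -0.15 for all measured genes. Hmgcs1 was at a log2 ratio of 0.37 (0.03 to 0.70). Idi1 had 101 CPM in the NTD library, against 69.8 CPM in the control library, with overlapping intervals.

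Over the 18 clusters with at least 100 cells in both libraries, Idi1 had a positive log2 ratio in 16 and an interval above 0 in 8. Hmgcs1 was positive in 14, with the interval above 0 in 9 and below 0 in 1. Fdft1 was negative in 17, with the interval below 0 in 6, and Lss was negative in 16, with the interval below 0 in 7. With TMM scaling Idi1 was positive in 18 clusters, Hmgcs1 in 17, Fdft1 in 6 and Lss in 3, and the same numbers of clusters had a ratio above the cluster's median of all measured genes. These clusters share 1 NTD and 1 control library and are not replicates of a condition.

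**Figure D3:**
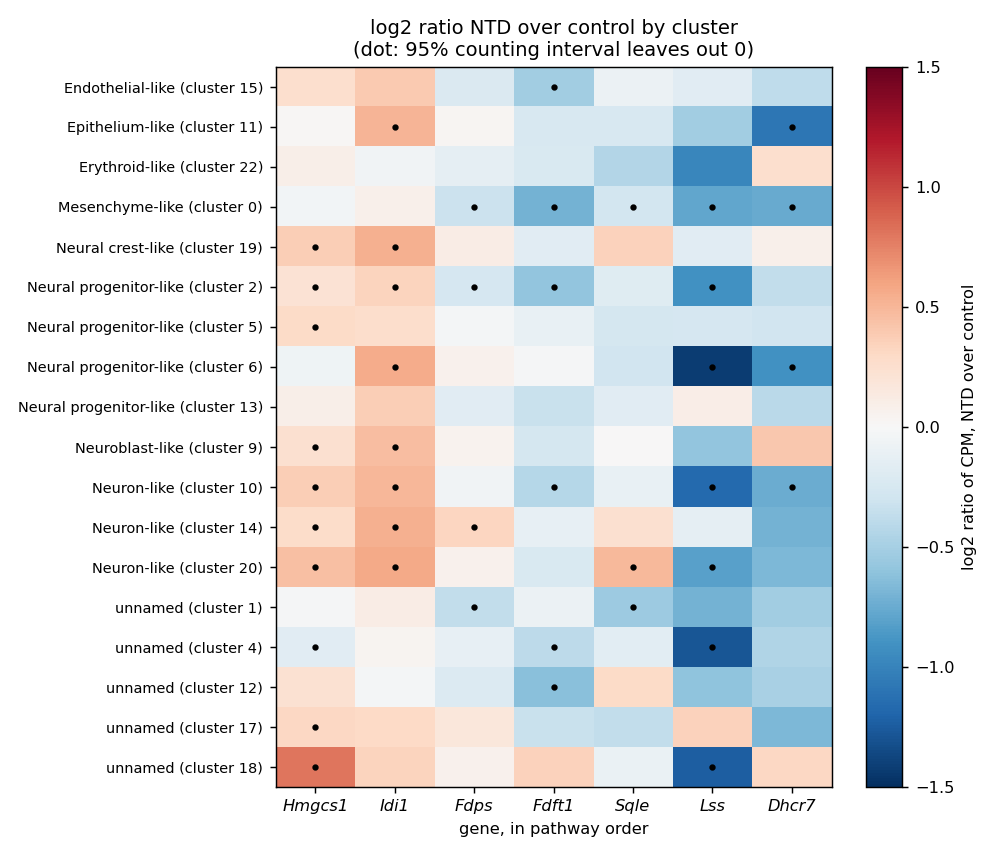
Log2 ratio of CPM, NTD over control, for each gene (columns, pathway order) in the 18 clusters with at least 100 cells in both libraries (rows); red is higher and blue lower in the NTD library, and a dot marks a 95% counting interval that leaves out 0. Idi1 is positive in 16 clusters and Lss negative in 16, with Lss running from -1.42 to 0.35.

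Dhcr7 was negative in 14 of these clusters, with the interval below 0 in 4 and above 0 in none, and the 14 stayed negative with TMM scaling. Sqle was negative in 13, and its interval lay below 0 in 2 clusters and above 0 in 1. Fdps was positive in 8 clusters and negative in 10, and its interval lay above 0 in 1 and below 0 in 3. Scaled by TMM, Sqle was positive in 7 clusters and Fdps in 12, so the more frequent sign of Fdps turned with the scaling. Lss also differed between the 4 progenitor-like clusters by point value. In cluster 6 Lss had 13.6 CPM in the NTD library, against 36.2 CPM in the control library, a log2 ratio of -1.42 (-2.10 to -0.70), while in cluster 13 it had 17.2 CPM in the NTD library, against 15.6 CPM in the control library, a log2 ratio of 0.10 (-0.80 to 1.20).

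Position along the neural tube moved with the libraries: 603 of 4782 NTD and 1703 of 2415 control progenitor-like cells held a UMI of a Hox gene, a family expressed from the hindbrain backwards. In cells with a Hox UMI the log2 ratio was 0.21 (0.05 to 0.36) for Hmgcs1, 0.30 (0.02 to 0.57) for Idi1 and -0.55 (-1.12 to -0.04) for Lss. In cells without a Hox UMI it was 0.20 (0.04 to 0.37) for Hmgcs1, 0.38 (0.10 to 0.68) for Idi1 and -0.83 (-1.27 to -0.34) for Lss. For Hmgcs1, Idi1 and Lss the intervals of both sets of cells overlapped. Within a library, cells with over cells without a Hox UMI had intervals that included 0 for every gene except Fdps in the NTD library, at -0.22 (-0.39 to -0.06).

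The share of cells that held a UMI followed the levels. With each cell thinned to 1589 UMIs, which left out 0 NTD and 4127 control cells, Lss was detected in 2.63% of NTD progenitor-like cells (2.20% to 3.13%) and 4.51% of control ones (3.63% to 5.52%). Idi1 was detected in 13.8% (12.9% to 14.8%) of NTD and 10.9% (9.55% to 12.3%) of control progenitor-like cells. Hmgcs1 was detected in 33.6% (32.2% to 34.9%) of NTD and 30.6% (28.6% to 32.7%) of control progenitor-like cells, a pair of intervals that overlap slightly. Fdft1 was detected in 9.89% (9.06% to 10.8%) of NTD and 13.3% (11.8% to 14.8%) of control progenitor-like cells, with intervals that do not overlap. Without thinning, the shares were 4.91% of NTD and 7.29% of control cells for Lss, 22.9% and 16.7% for Idi1, and 49.7% and 42.4% for Hmgcs1. No class known to lack these enzymes was at hand as a background, so the part of free RNA in these shares was not tested. In erythroid-like cells Lss was detected in 1 of 153 NTD and 1 of 125 control cells after thinning, where the median before thinning was 2126 UMIs in the NTD library and 1646 UMIs in the control library.

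No single progenitor-like cell showed all 7 genes at the thinned depth. After thinning, a cell held UMIs of 1.05 of the 7 genes on average in the NTD library and 1.08 in the control library. None of the 7 was detected in 31.2% of NTD and 31.5% of control progenitor-like cells. The most seen in 1 cell was 5 of 7 in both libraries.

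Clusters 1 and 3, which stayed unnamed, stood apart by depth and library. Cluster 1 had 2480 NTD cells (median 1727.5 UMIs) and 395 control cells (median 1112 UMIs), and cluster 3 had 44 NTD cells and 2369 control cells (medians 1705 and 1128 UMIs). Within the NTD library, cluster 1 over neural progenitor-like cells was 1.52-fold for Hmgcs1, 1.78-fold for Idi1 and 1.60-fold for Fdps. Within the control library these folds were 1.76 for Hmgcs1, 2.16 for Idi1 and 1.95 for Fdps. Lss was lower in cluster 1 instead, at 0.60-fold in the NTD library (10.8 against 18.1 CPM) and 0.61-fold in the control library (16.8 against 29.3 CPM). All 10 leading genes of cluster 1 were histone genes. The summed level of its 12 erythroid markers was 23798 CPM in the NTD library, against 30671 CPM in the control library. No erythroid marker was at 0 in either library. Its 13 neuron markers summed to 2422 CPM in the NTD library, against 1998 CPM in the control library. Its 13 neural progenitor markers summed to 2852 CPM in the NTD library, against 1977 CPM in the control library. The part of depth and of such mixed markers in these levels was not tested.

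Profiles over clusters put the 7 genes into loose groups. Correlations were taken over 43 units (a cluster in 1 library, at least 100 cells) from log2(CPM + 10), and over 40 units without the low-UMI clusters. These units share libraries and depth, so the values are descriptions. Each correlation used NTD and control units in the same set, so the differences between the libraries given above also enter r. This holds for the nearest genes below as well. The part of the library difference in these values was not tested. Fdft1 and Dhcr7 had r = 0.67 (0.68 without the low-UMI units), Lss and Dhcr7 0.62 (0.63), and Fdft1 and Lss 0.50 (0.54). Hmgcs1 and Idi1 had r = 0.68 but 0.36 without the low-UMI units, and Hmgcs1 and Fdps 0.66 but 0.15, so those pairs rested largely on these 3 units. Idi1 and Lss ran against each other, at -0.58 (-0.65). They also differed between the libraries in opposite directions, with Idi1 positive in 16 and Lss negative in 16 of 18 clusters.

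Among 8364 other genes, those nearest to the mean profile of the 7 included 2 further enzymes of the same route: Cyp51, which removes a methyl group from lanosterol (r = 0.76, and 0.60 without the low-UMI units), and Msmo1, a sterol methyl oxidase (0.71 and 0.61). Sncg, Nudt16l1, Chd4, Ftsj3, Tecr, Sec11a and Sdc1, also among the nearest 10, had r from 0.59 to 0.64, but only from 0.16 to 0.41 without the low-UMI units. Idi1 was nearest to Impdh2 (0.93), the rate-limiting enzyme of guanine nucleotide synthesis, Eif3k (0.92), a translation initiation factor subunit, and Rpl7a (0.92), a ribosomal protein. Lss was nearest to Aacs (0.78), acetoacetyl-CoA synthetase, then Zfr2 (0.73) and Zcchc14 (0.72). Dhcr7 was nearest to the fatty acid elongase Elovl6 (0.68), and Hmgcs1 to Vps4a and the fatty acid desaturase Scd2 (both 0.83, but 0.65 and 0.59 without the low-UMI units). Fdps was nearest to Actc1 (0.87, but 0.50 without the low-UMI units) and Sqle to Tecr (0.70, but 0.29).

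All 5 related lists of sterol and lipid genes had a negative median ratio in neural progenitor-like cells, as did genes at large. In neural progenitor-like cells 4 of 15 other enzymes of the mevalonate and sterol route were counted as lower and 0 as higher, with a median log2 ratio of -0.26, and with TMM scaling 2 were lower and 0 higher. The shares over all genes in these cells, 35.4% lower and 13.8% higher (19.4% and 23.0% with TMM scaling), apply to each count of these lists. Sc5d, which makes the sterol B-ring double bond, had 30.2 CPM in the NTD library, against 37.2 CPM in the control library (log2 ratio -0.30, -0.53 to -0.07), within the limits for both counts. Cyp51 (-0.18) and Msmo1 (-0.26) also stayed within these limits. The median of all measured genes, -0.19, lay above the median of this list by less than 0.1. Over all kept cells Sc5d was past the limit for lower, at -0.57 (-0.68 to -0.46), and -0.38 relative to genes of like span. Cyp51 and Msmo1 stayed within the limits there, at -0.23 and -0.26. Relative to genes of like span, Sc5d had -0.20 in neural progenitor-like cells.

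**Figure D4:**
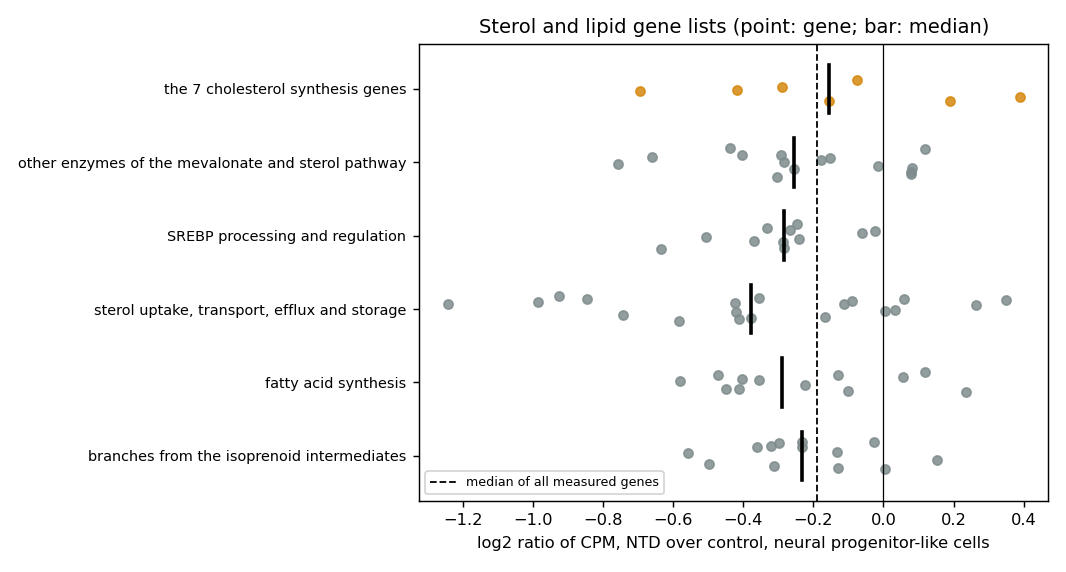
Log2 ratio of CPM, NTD over control, in neural progenitor-like cells for each measured gene (points) of the 7 cholesterol synthesis genes and of 5 related lists, with the median of each list (bars) and of all measured genes (dashed line, -0.19). The 7 genes run from -0.69 to 0.39 around a median of -0.16, and the medians of the other lists lie between -0.38 and -0.23.

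Of 11 genes of SREBP processing, 4 were counted as lower, near the 35.4% of all genes, and 0 as higher, with a median of -0.29. With TMM scaling 2 were lower and 0 higher. Mbtps2, the membrane protease that releases SREBP, had 48.4 CPM in the NTD library, against 75.1 CPM in the control library, a log2 ratio of -0.63 (-0.80 to -0.46). Insig2, which retains SREBP in the endoplasmic reticulum, was at -0.51 (-0.76 to -0.25), and Srebf2, which encodes SREBP2 itself, at -0.37 (-0.49 to -0.25) with 107 CPM in the NTD library, against 138 CPM in the control library. Sterol uptake, transport, efflux and storage had 11 of 19 genes lower and 1 higher, with a median of -0.38 and a range from -1.24 to 0.35, and with TMM scaling 6 were lower and 2 higher. Among them the lipoprotein receptor gene Lrp8 had 34.3 CPM in the NTD library, against 57.4 CPM in the control library, a log2 ratio of -0.74 (-0.94 to -0.55). Over all kept cells the log2 ratios were -0.61 for Mbtps2, -0.30 for Insig2, -0.39 for Srebf2 and -0.37 for Lrp8. Relative to genes of like span, in the same cells and order, they were -0.30, -0.06, -0.09 and -0.05. By that measure in neural progenitor-like cells they were -0.38, -0.32, -0.12 and -0.47.

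Fatty acid synthesis had 6 of 12 genes lower and 0 higher, with a median of -0.29, against 35.4% lower among all genes, and 1 lower and 1 higher with TMM scaling. Fads1, a fatty acid desaturase, was at -0.47 (-0.65 to -0.29), Acaca, which makes malonyl-CoA, at -0.45 (-0.54 to -0.36), and Elovl6 at -0.40 (-0.51 to -0.30). The branches that leave the isoprenoid intermediates had 3 of 13 genes lower and 0 higher, with a median of -0.23, and 1 lower and 1 higher with TMM scaling. There Fntb, a farnesyltransferase subunit, was at -0.56 (-0.76 to -0.36), and Pdss1 and Pdss2, which build the ubiquinone tail from the products of Fdps, were at -0.50 (-0.68 to -0.31) and -0.32 (-0.44 to -0.20). With TMM scaling the medians of these 5 lists lay between -0.19 and -0.05. Over all kept cells the log2 ratios were -0.52 for Fads1, -0.49 for Acaca and -0.50 for Elovl6. Relative to genes of like span they were -0.33, -0.09 and -0.16 over all kept cells, and -0.36, -0.10 and -0.10 in neural progenitor-like cells. Fntb, Pdss1 and Pdss2 had -0.40, -0.33 and -0.37 over all kept cells, and -0.04, -0.05 and 0.02 there relative to genes of like span. In neural progenitor-like cells the values relative to genes of like span were -0.23, -0.27 and 0.03. The part of gene span in these ratios was not tested.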

How the data were processed

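The deposited files hold UMI counts per gene and barcode, made by the authors with Cell Ranger (version 7.0.1 per the file headers), with STAR and the mm10 build, per the submitters' processing notes. Annotation, intron and strand settings and cell calling were not given in the sources used here. A filter of 500 genes, 1000 UMIs and no more than 10% mitochondrial UMIs per barcode removed none. The lowest UMI total was 1589 in the NTD library and 1027 in the control library. Scrublet's automatic threshold (0.696 in the NTD library and 0.623 in the control library) called 0 doublets and had not worked, so the highest-scoring barcodes at 0.8% per 1000 barcodes were removed, 2905 NTD (15.2%) and 2759 control (14.9%), a choice made after seeing the data.

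Cells were clustered together without integration in scanpy 1.11.5: counts scaled to 10000, log transformed, 2000 variable genes, 30 components, 15 neighbours and Leiden (leidenalg 0.10.2) at resolution 1.0. Names came from markers of 17 classes. Their scoring was settled with the clusters in view. Markers had to be in 10% of a cluster's cells and at least 25% above the other cells. A name needed 3 markers and a lead of 2 over the next class. No name was given where the cluster's leading genes were those of another class, which left clusters 4, 7, 12, 17 and 18 unnamed. Clusters 12 (797 NTD and 307 control cells) and 17 (481 and 291) held most markers of neural progenitors. They are thus not among the progenitor-like cells. Because names were rebuilt here, they may differ from others given to these cells.

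UMIs were summed per class and library and scaled to CPM. Log2 ratios, NTD over control, had 0.5 counts added, genes needed 20 UMIs over both libraries, and intervals were exact Poisson, exact conditional binomial or exact Clopper-Pearson. The ratio step was tested on simulated data. No test across samples was made with 1 library per group. TMM used edgeR 4.0.16, only for scaling. Spans came from GENCODE M21 on GRCm38, matched for 32235 of 32285 gene IDs, which may differ from the authors' annotation, and promoters from RefSeq on GRCm38.p6.

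The members, lists and markers were chosen with earlier results of these data known. The naming rule took all 7 members, for each other list up to 3 genes (20 CPM or more in either library) whose ratio in progenitor-like cells was farthest from 0, and the genes of most similar profile (10 for the mean of the members, 3 for each). Some genes that this rule takes are not reported here. Cyp51 and Msmo1 ratios were added after their values were seen. Alternatives were other scalings, doublets kept, stricter cell filters, thinning, other clustering resolutions (0.5 and 2.0), equal cluster mix and Hox position.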

Additional observations from a re-analysis of the deposited data

Results flagged for a closer look

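For 3 of the 7 genes the log2 ratio, NTD over control, had opposite signs in different clusters, with both counting intervals leaving out 0. The difference between clusters was not tested, since each group had 1 library, and the pairs were picked as the extremes among 18 clusters. Hmgcs1 was higher in the NTD library in cluster 18 (0.80, interval 0.34 to 1.32) and lower in cluster 4 (-0.17, -0.34 to -0.01), which differ by 0.97. Fdps was higher in the neuron-like cluster 14 (0.32, 0.06 to 0.60) and lower in the low-UMI cluster 1 (-0.37, -0.58 to -0.14), which differ by 0.69. Sqle was higher in the neuron-like cluster 20 (0.49, 0.03 to 0.95) and lower in cluster 1 (-0.54, -0.87 to -0.18), which differ by 1.04. Clusters 1, 4 and 18 carry no class name. Relative to each cluster's median of all measured genes, the lower ratio was -0.05 (-0.22 to 0.12) for Hmgcs1 in cluster 4. For Fdps in cluster 1 it was -0.19 (-0.40 to 0.04). Both stayed negative by point value, with intervals that include 0. The higher ratios by this measure were 0.95 for Hmgcs1 in cluster 18 and 0.48 for Fdps in cluster 14. For Sqle in cluster 1 the lower ratio was -0.37 (-0.69 to -0.01). The part of scaling in these signs was not tested.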

How the results depend on the processing

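Over all kept cells, TMM scaling left 1 gene counted as lower and 2 as higher, with a median log2 ratio of 0.073, by construction a shift of all ratios. The median was -0.089 with totals without ribosomal protein, haemoglobin and mitochondrial genes, -0.062 with at least 1000 genes and 2000 UMIs, and -0.075 with thinned cells. With an equal mix of clusters 0 were higher. In neural progenitor-like cells TMM left 1 lower and 2 higher (median 0.028), keeping doublets 3 lower and 0 higher, the stricter filter 1 lower, and cells with a Hox UMI 3 lower and 0 higher. Thinning and both other clustering resolutions also gave 3 lower, with Fdft1 past the limit in 5 of 14 alternatives (range -0.45 to -0.08). Added after seeing the data were the ratio relative to genes of like span (1 lower and 2 higher in both sets, median 0.032 over all kept cells), leaving out clusters over 90% from 1 library (median -0.088) and a matched lowest UMI total (median -0.075). The cause of these moves was not tested. In progenitor-like cells Lss stayed between -0.83 and -0.50, Idi1 between 0.30 and 0.57 and Dhcr7 between -0.51 and -0.23 over 14 alternatives, while Fdps (-0.25 to 0.11) and Sqle (-0.23 to 0.03) took both signs. Without a filter on low counts the values were identical, since all 7 genes were measured. No paired analysis was possible because each group had 1 library and the labels carry no replicate numbers, and leaving out a replicate was not possible either. Depth limits Lss and Dhcr7 most, with at most 294 progenitor-like UMIs per library.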
